A study of Mus musculus with 61 samples.

Results

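The comparison concerned untreated lacrimal glands of male NOD (non-obese diabetic) mice at 2 ages, week 16 and week 8. Its members were the arrays titled as untreated lacrimal controls of those weeks, 4 arrays at week 16 and 4 at week 8, or 8 of the 61 arrays of the series. NOD males develop leukocyte infiltrates in the lacrimal gland and serve as a model of Sjögren's syndrome, and the study followed the glands as the infiltrates formed and under blockade of the lymphotoxin-β receptor. Each array held RNA of both lacrimal glands of a single mouse, so the 4 arrays of a group were separate animals. Further groups were set beside them: 4 lacrimal arrays of week 16 NOD mice that had received MOPC-21, a control mouse antibody, and 4 untreated salivary arrays at each of weeks 8 and 16, each from the combined salivary glands of an NOD mouse. The strain was NOD throughout, with no array of a strain free of the disease in these groups, so that the older age of the mice and the disease cannot be told apart.

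The lacrimal gland secretes the watery and protein part of tears. Acinar cells make the secreted proteins and fluid, ducts modify the fluid, myoepithelial cells squeeze the acini, and a stroma of fibroblasts and vessels holds them. In the inflamed gland T cells, B cells and myeloid cells gather in foci around ducts and vessels, chemokines such as Cxcl13 organise them, and interferon induces antigen presentation genes in leukocytes and epithelium. In whole-gland RNA a lower level may come from fewer cells of a type or from less RNA in each cell, and these cannot be told apart.

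Values are GCRMA levels on the log2 scale. Levels at or below 4 were taken as near background, and a probe set entered the test when at least 2 of the 8 arrays lay above 4. A gene below 4 in every week 8 array could enter only through its week 16 arrays. Shares of the genes that passed are therefore not independent of a rise. A gene was called higher or lower when its mean changed by a fold of at least 2 with an adjusted p under 0.05, and each gene was read from its probe set of highest mean. Beyond the genes taken by a fixed rule, further members of the gene lists were named after their values were seen. Of 19517 probe sets tested, 2393 were called higher at week 16 and 902 lower, or 12.3% and 4.62%. Among the 9901 genes tested, 1268 (12.8%) were higher and 460 (4.65%) lower. Over all 18194 measured genes 12625 changes were negative, 6.97% were called higher and 2.53% lower. These shares are the background for the count of calls in each list below. Most calls were rises, 72.6% against 27.4% falls. When each array was centred on its median, which shifted the median change of the tested probe sets from -0.08 to -0.18, the split became 62.5% against 37.5%. In 57.7% of the tested genes, and 55% of the probe sets, the 4 arrays of one week lay wholly above those of the other, so separation of the groups alone was common.

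Arrays of one group correlated with r of 0.973 to 0.990 over all probe sets, and arrays of the 2 weeks with r of 0.827 to 0.901. Tear gland products were abundant in all 8 arrays: the deoxyribonuclease Dnase1 read 15.54 to 15.65 at week 8 and 15.29 to 15.48 at week 16. Untreated week 16 replicates 1 and 2 stood apart in a set of salivary products, with the salivary amylase Amy1 at 14.39 and 15.31 against at most 3.74 in the other 6 arrays. Where a call, a count of calls or the fold change of a called gene taken by the rule moved by over 1.5 times without these 2 arrays, the value without them is given as well. Whether salivary tissue was part of these 2 samples was not tested. The level of β-actin's 3′ probe set minus its 5′ probe set, a sign of RNA length, was 2.06 to 2.34 at week 8 and 1.70 to 1.81 at week 16, without overlap, while the same measure for Gapdh overlapped (-0.80 to -0.55 and -0.75 to -0.68). The part of RNA length in the changes was not tested.

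Promoters of genes from the interferon and class II lists are shown first, because many members of each list were called higher. Interferon-induced genes often carry a GAAANNGAAA core in their promoter, bound by factors of the interferon regulatory family, and class II genes carry a Y box, bound by the factor NF-Y. In the 250 bases before the start site, on both strands, 10 of the 18 interferon genes called higher that had a RefSeq promoter held GAAANNGAAA, as did 3.46% of 27025 genes. The Y box written as CTGATTGG was held by 3 of 7 class II genes called higher, and by 4.43% of all genes. The 2 motifs share no stretch, and a match is a description of letters, not of binding. The stretches below come from RefSeq on GRCm38.p6, run 5′ to 3′ along the gene's strand, and carry the matching bases in capitals. Gbp2, Igtp and Irgm2 encode interferon-induced GTPases and lie at chr3:142620514-142620633, chr11:58199432-58199551 and chr11:58214823-58214942, all on the plus strand. The stretches of Igtp and Irgm2 had the same base at 101 of 120 positions. H2-Eb1, H2-Aa and H2-Oa encode class II chains and lie at chr17:34305713-34305832 (plus), chr17:34287847-34287966 (minus) and chr17:34092241-34092360 (plus).
Gbp2: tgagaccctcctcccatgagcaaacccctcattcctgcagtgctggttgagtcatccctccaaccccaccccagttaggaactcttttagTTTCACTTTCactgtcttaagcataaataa
Igtp: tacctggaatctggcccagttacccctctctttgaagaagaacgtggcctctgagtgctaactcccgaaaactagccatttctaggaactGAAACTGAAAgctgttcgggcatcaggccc
Irgm2: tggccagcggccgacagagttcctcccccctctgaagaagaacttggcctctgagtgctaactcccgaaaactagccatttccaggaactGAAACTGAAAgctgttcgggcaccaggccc
H2-Eb1: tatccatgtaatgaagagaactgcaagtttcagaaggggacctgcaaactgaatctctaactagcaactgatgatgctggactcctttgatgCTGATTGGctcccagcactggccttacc
H2-Aa: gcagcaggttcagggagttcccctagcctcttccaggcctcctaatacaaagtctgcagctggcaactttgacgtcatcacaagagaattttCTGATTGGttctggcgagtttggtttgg
H2-Oa: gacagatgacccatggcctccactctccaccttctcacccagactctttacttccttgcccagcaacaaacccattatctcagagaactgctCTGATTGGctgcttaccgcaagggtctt

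Class II antigen presentation showed some of the widest rises of the comparison. Of 13 measured genes of the list, 12 passed the filter and 11 were called higher, with a median change of 5.09 over all 13, where all 18194 measured genes had a median of -0.06. The 11 were 84.6% of those measured, where 6.97% of all measured genes were called higher. H2-Ab1, a class II β chain, read 6.14, 6.87, 5.65 and 7.17 in the week 8 arrays and 12.07, 12.29, 12.38 and 12.87 at week 16. Every week 16 array was well above every week 8 array, a 61.6-fold rise (5.95 log2, SE 0.41, adjusted p = 1.5e-11). H2-Ob, part of the class II editing complex and known from B cells although the B cell list used here does not hold it, went from 2.56 to 2.89 at week 8 to 9.06 to 9.96 at week 16 (6.86 log2, SE 0.57, adjusted p = 4.4e-10). Because its week 8 arrays lay below 4, the size of that change rests on levels near background. Other class II genes were called as well: H2-Eb1 rose by 60.0-fold, H2-Aa by 52.7-fold, and the invariant chain Cd74 by 46.9-fold. Ciita, the master regulator of class II transcription, rose 7.84-fold from 2.92 to 3.22 up to 5.77 to 6.30. H2-Ea was not called and Cd80 did not pass the filter.

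**Figure D1:**
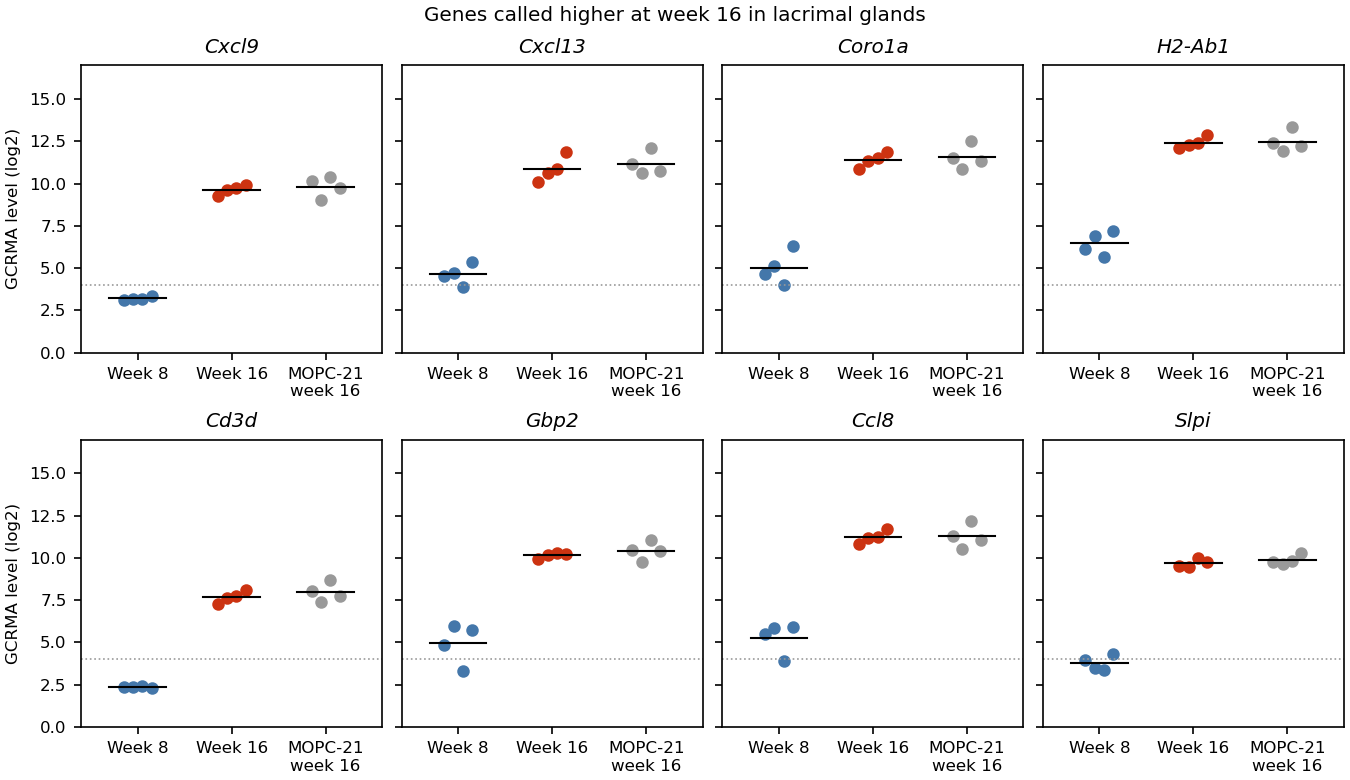
GCRMA level (log2, vertical axis) of 8 genes called higher, one panel each, in 4 untreated week 8, 4 untreated week 16 and 4 MOPC-21 week 16 lacrimal arrays; points are arrays, bars are group means and the dotted line is the floor of 4. No week 16 point overlaps the week 8 points, and week 8 points of Cxcl9 (3.13 to 3.36) and Cd3d (2.31 to 2.38) lie under the floor.

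Class I presentation rose in every gene measured. All 12 measured genes of the list passed the filter and were called higher, with a median of 3.56, where 6.97% of all measured genes were called higher. Psmb8, an inducible subunit of the immunoproteasome, read 4.04, 5.56, 4.06 and 5.95 at week 8 and 9.92, 10.04, 10.41 and 10.75 at week 16. The groups were far apart, a 41.6-fold rise (5.38 log2, SE 0.46, adjusted p = 7.8e-10). Another probe set of Psmb8 changed by 0.49 and was not called. Psmb9, its partner subunit, rose 33.3-fold and Nlrc5, the transactivator of class I genes, 26.6-fold from levels below 4. The class I heavy chain H2-K1 rose 23.1-fold, and β2-microglobulin (B2m), already at 10.84 to 12.32 at week 8, rose 4.92-fold to 13.93 to 14.22.

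Interferon-induced genes accounted for 31 measured genes, of which 29 passed the filter and 27 were called higher. Their median change was 2.34, and none was called lower. The 27 were 87.1% of those measured, where 6.97% of all measured genes were called higher. Gbp2 read 4.86, 5.99, 3.31 and 5.74 at week 8 and 9.93, 10.14, 10.27 and 10.25 at week 16, with the lowest week 8 value in replicate 3. Its change was 36.1-fold (5.17 log2, SE 0.49, adjusted p = 4.3e-09), larger than the spread of the week 8 arrays. Ifi47 and Igtp, both interferon-γ-induced GTPases, rose 40.5-fold and 26.6-fold. Other members called higher were Ifit1 (5.09-fold), Ifit3 (5.07-fold), the antiviral GTPase Mx1 (5.99-fold) and the negative regulator Usp18 (2.53-fold), the last with overlapping groups. The transcription factors Irf1 and Irf7 rose 16.1-fold and 5.49-fold. Replicate 3 was the lowest week 8 array for Gbp2, Ifi47, Igtp, Irgm2, Ifih1 and Usp18. Isg20 and Stat2 were not called.

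T cell markers as a list were close to background at week 8. Part of them lay above 4 at week 16, while 8 of the 22 measured did not pass the filter. Of 22 measured markers, 14 passed the filter and all 14 were called higher. That was 63.6% of those measured, where 6.97% of all measured genes were called higher. Markers near background at week 8 could pass only through week 16, so the 14 of 14 is not a result in itself. The median over the 22 was 2.01, and the mean level of the list was 2.82 to 2.88 at week 8 and 4.47 to 4.97 at week 16. Cd3d, a chain of the T cell receptor complex, was at 2.36, 2.36, 2.38 and 2.31 at week 8 and at 7.25, 7.64, 7.74 and 8.08 at week 16. The change was 40.1-fold (5.33 log2, SE 0.47, adjusted p = 1.2e-09) against week 8 levels below the floor. Cd3g rose 34.2-fold and Cd2, an adhesion receptor of T cells, 12.9-fold. Trav9d-3, a T cell receptor α variable segment, was among the largest rises with 75.0-fold (6.23 log2, SE 0.36, adjusted p = 4.7e-13), a probe set whose sequence other variable segments may share. Genes of activated and helper T cells rose too, among them Cd28 (12.8-fold), Icos (6.62-fold), Ctla4 (4.77-fold) and Cd4 (3.89-fold).

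Cytotoxic lymphocyte genes numbered 15 measured, 10 past the filter and 9 called higher. The 9 were 60% of those measured, where 6.97% of all measured genes were called higher. Ccl5, a chemokine that cytotoxic T cells and natural killer cells release, read 2.85, 3.83, 2.47 and 2.86 at week 8 and 8.29, 8.65, 8.87 and 8.99 at week 16. No array of week 8 reached 4, and the change was 51.8-fold (5.70 log2, SE 0.42, adjusted p = 6.3e-11). Klrd1, a lectin receptor of natural killer cells, rose 14.6-fold and the protease Ctsw 12.2-fold. The granule protein Nkg7 rose 11.3-fold, while granzyme A (Gzma) rose 3.21-fold.

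Pan-leukocyte and lymphocyte genes were among the widest rises by the rule. Ptprc (CD45), on all nucleated blood cells, read 5.81, 6.09 and 4.45 in week 8 replicates 1 to 3, was highest of that week in replicate 4, and read 11.50, 11.71, 11.93 and 12.13 at week 16. It rose 63.0-fold (5.98 log2, SE 0.48, adjusted p = 2.2e-10), and its week 8 arrays differed among themselves by more than its week 16 arrays. Coro1a, an actin-binding protein of leukocytes, rose 82.7-fold, the surface glycoprotein Cd52 81.6-fold, and Cytip, an adhesion regulator of lymphocytes, 79.3-fold. Other probe sets were also called but rose less. They changed by 1.76 log2 for Ptprc, 1.96 and 5.72 for Coro1a, and 2.39 and 5.94 for Cytip. Ms4a4b, a T cell membrane protein, rose 62.5-fold. Btla, an inhibitory receptor of B and T cells, rose 98.2-fold from 2.38 to 2.97, levels below the floor. The study counts Btla among B cell related genes, although the B cell list used here does not hold it. For scale, 17 of 18 measured B cell markers and 4 of 8 plasma cell genes were also higher, with medians of 5.35 and 1.59.

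Macrophage and dendritic cell genes rose in 20 of 27 measured genes, 23 of which passed the filter, and the median was 2.63. The 20 were 74.1% of those measured, where 6.97% of all measured genes were called higher. Mpeg1, a perforin of phagocytes, read 4.83, 5.08, 4.52 and 6.26 at week 8 and 9.66, 9.63, 9.81 and 10.16 at week 16. The groups stood apart with a 25.1-fold rise (4.65 log2, SE 0.43, adjusted p = 3.0e-09). Cd83, a maturation marker of dendritic cells, rose 23.2-fold and Clec7a, the receptor Dectin-1, 20.5-fold. The 3 chains of complement C1q, made by macrophages, rose by 3.86 (C1qa), 3.40 (C1qb) and 4.09 (C1qc) on the log2 scale. Lysozyme (Lyz2) rose 16.7-fold and the macrophage growth factor receptor Csf1r 5.32-fold.

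Chemokines divided into genes that were at background at week 8 and genes already present. Of 23 inflammatory chemokine and receptor genes, 15 passed the filter and 13 were higher. The 13 were 56.5% of those measured, where 6.97% of all measured genes were called higher. Cxcl9, an interferon-γ-induced ligand that draws T cells, read 3.13, 3.17, 3.16 and 3.36 at week 8 and 9.28, 9.61, 9.76 and 9.89 at week 16. It went from below the floor in every week 8 array to an 86.1-fold higher mean (6.43 log2, SE 0.44, adjusted p = 1.7e-11). Another probe set of Cxcl9 rose by only 1.65 log2 and was also called. Cxcl10, a relative of Cxcl9, rose 11.3-fold from 4.35 to 4.73, and Cxcr3, the receptor for both, 8.27-fold. Ccl8, a monocyte chemokine, was present at week 8 (5.46, 5.83, 3.90 and 5.88) and reached 10.80, 11.20, 11.21 and 11.68. Its rise was 62.1-fold (5.96 log2, SE 0.48, adjusted p = 2.9e-10), and replicate 3 was again the lowest week 8 array.

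Of 15 measured homeostatic chemokine and high endothelial venule genes, 9 passed the filter and all 9 were higher. Those at background at week 8 could pass only through week 16. The 9 were 60% of the genes measured, where 6.97% of all measured genes were called higher. High endothelial venules are the vessels through which lymphocytes enter lymphoid tissue. Cxcl13, which draws B cells into follicles, read 4.55, 4.70, 3.88 and 5.35 at week 8 and 10.09, 10.60, 10.87 and 11.90 at week 16, a 76.0-fold rise (6.25 log2, SE 0.65, adjusted p = 1.8e-08). Vcam1, an endothelial adhesion molecule, was at 3.99, 3.35, 3.29 and 4.33 and then 8.53, 8.73, 8.78 and 9.10, a 32.9-fold rise. Both genes separated the weeks without overlap. Other probe sets of Vcam1 rose by 3.42 and 1.82 log2, against 5.04 for the one read here, and were also called. Glycam1, a scaffold for the L-selectin ligands of these venules, was below the floor at 2.98 to 3.17 and reached 7.36, 6.72, 6.75 and 7.16 (15.1-fold, SE 0.38 log2, adjusted p = 7.2e-09). Cxcl12, a broadly made stromal chemokine, was well above background at week 8 (6.76 to 7.25) and rose 3.38-fold by its probe set of highest mean, while another probe set of the gene changed by -0.53 and was not called. Its receptor Cxcr4 rose 46.4-fold. Pla2g2d, a phospholipase of lymphoid tissue, rose 8.41-fold from levels below the floor to 4.93, 5.60, 5.85 and 6.37. Cxcr5 and Ccr7, the receptors of follicular and T zone homing, rose 14.4-fold and 9.89-fold. Ccl19 and Ccl21a had no probe set with that symbol alone, and Madcam1, Chst4 and Chst2 did not pass the filter. For Madcam1, the addressin of mucosal venules, week 16 levels were 2.40 to 2.42. Chst4, a sulfotransferase of high endothelial cells, read 2.64 to 2.66 at week 16, and Chst2 3.32 to 4.44.

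Smaller sets of inflammatory genes also moved upward. Shares called higher were 50% of the complement, 36.8% of the antimicrobial, 55% of the cathepsin and 40.7% of the cytokine genes measured. Over all measured genes the share was 6.97%. In the complement list 6 of 12 genes were higher, led by factor B (Cfb, 12.4-fold), the C1 inhibitor Serping1 (2.58 log2) and the regulator Cd55 (5.36-fold). Among 19 antimicrobial, acute-phase and antiprotease genes 7 were higher, and the median was 0.04. Slpi, a secreted protease inhibitor of mucosal epithelia, read 3.95, 3.47, 3.38 and 4.31 at week 8 and 9.51, 9.47, 9.99 and 9.73 at week 16. It was uniformly high at week 16, with a 59.7-fold rise (5.90 log2, SE 0.33, adjusted p = 2.3e-13). The α1-antitrypsin gene Serpina1b rose 32.8-fold and Serpina3n 11.1-fold. Of 20 cathepsin and lysosome genes 11 were higher, with cathepsin S (Ctss), which processes the invariant chain, at 26.1-fold and Laptm5, a lysosomal protein of leukocytes, at 25.3-fold. Of 27 cytokine and signalling genes 11 were higher, among them lymphotoxin-β (Ltb, 49.1-fold), Stat4 (15.2-fold) and the interleukin-7 receptor Il7r (14.6-fold), each from week 8 levels near or below 4. The B cell survival factor Tnfsf13b rose 5.62-fold.

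Cell cycle genes were called in a number that depended on single arrays. Of 20 measured, 14 passed the filter and 3 were higher, Ube2c, Top2a and Ccnb2, with a median of 0.57 over the 20. The 3 were 15% of those measured, where 6.97% of all measured genes were called higher. Ube2c, a mitotic ubiquitin-conjugating enzyme, read 4.80, 4.14, 2.44 and 2.82 at week 8 and 5.18, 5.25, 5.37 and 5.36 at week 16, a 3.34-fold rise (1.74 log2, SE 0.44, adjusted p = 0.0018). Week 8 replicate 1 was the highest of its group for all 3 genes, and the groups overlapped for Top2a and Ccnb2. Without week 8 replicate 1 the count was 8, and without week 8 replicate 3 or 4 or week 16 replicate 3 or 4 it was 1.

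**Figure D2:**
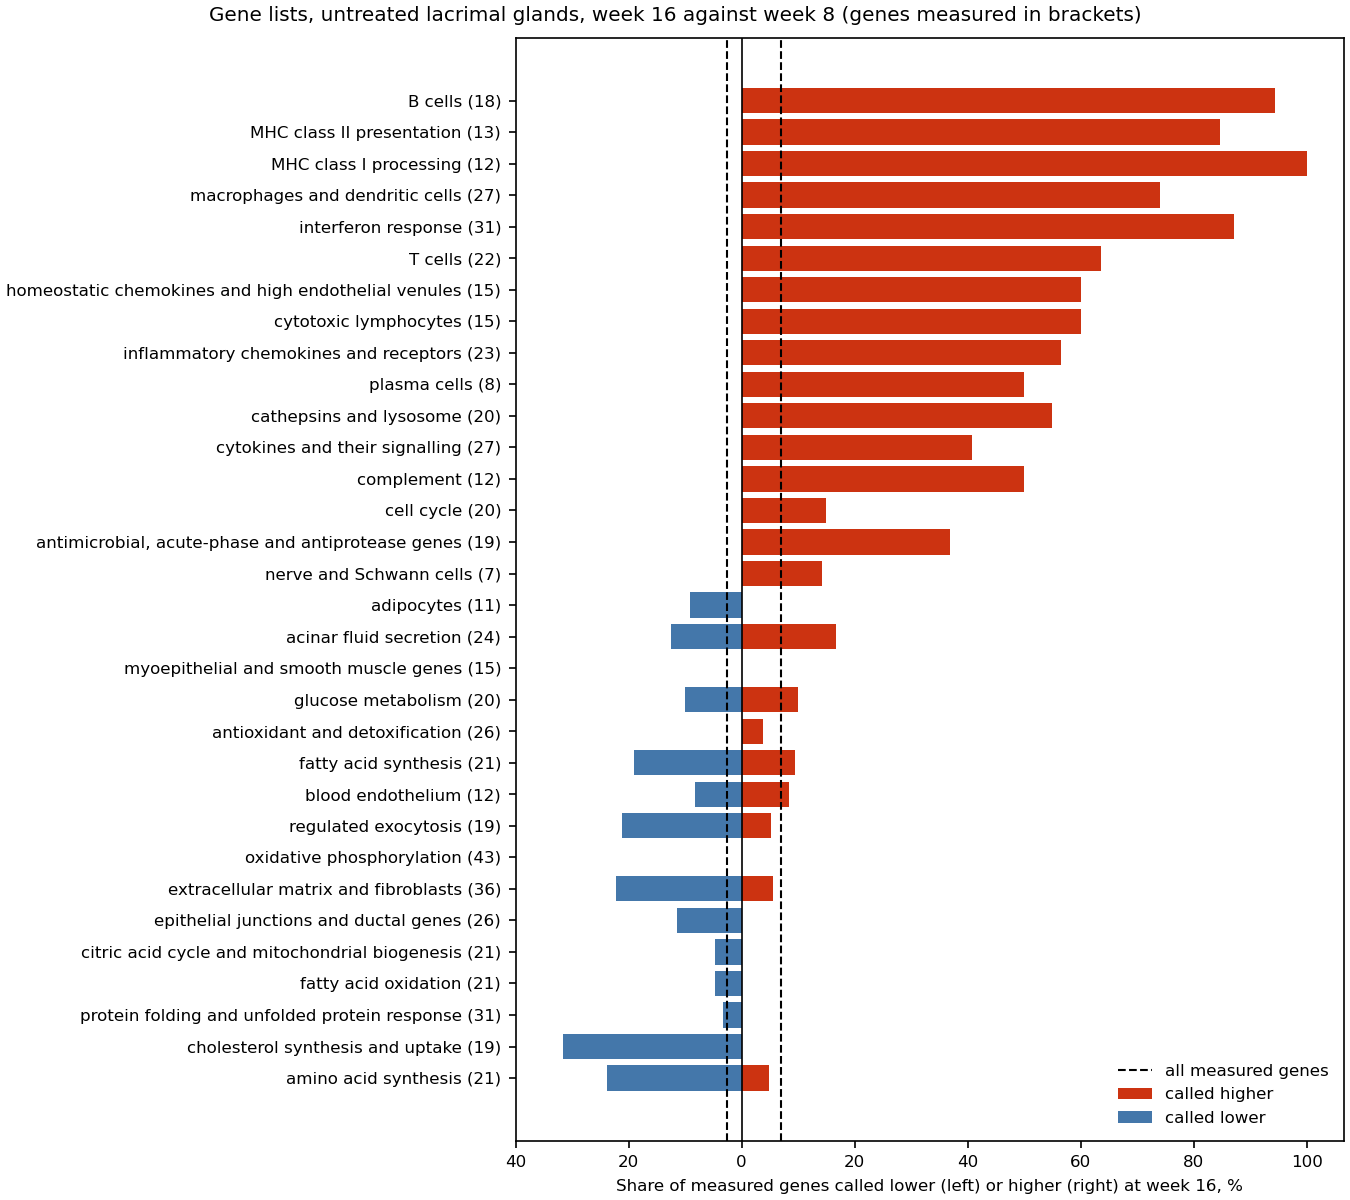
Share of the measured genes of each list called lower (left, %) or higher (right, %) at week 16 against week 8, with the number measured in brackets; the dashed lines mark the share over all 18194 measured genes, 2.53% lower and 6.97% higher. Leukocyte and antigen presentation lists lie far to the right, cholesterol, amino acid, matrix and exocytosis lists to the left, and oxidative phosphorylation has no bar on either side.

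The 25 largest falls were genes of varied function. Cyp2b19, a cytochrome P450 that makes epoxides of arachidonic acid, read 7.77, 7.53, 8.47 and 7.96 at week 8 and 3.10, 3.28, 2.76 and 2.99 at week 16. All 4 week 16 arrays were below the floor, a 29.9-fold lower mean (-4.90 log2, SE 0.22, adjusted p = 8.8e-15), so the size of the fall is set by a level near background. The mean at week 12 was already 3.05. Sult1d1, a cytosolic sulfotransferase, went from 8.20, 8.32, 8.26 and 7.54 to 3.92, 4.33, 3.58 and 4.11, 17.1-fold lower (-4.09 log2, SE 0.30, adjusted p = 4.0e-11). Both fell in every week 16 array without overlap.

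Several of the 25 are known from secretory or surface epithelium. B4galt1, the Golgi galactosyltransferase that builds N-glycans, read 8.67, 8.44, 9.09 and 8.97 at week 8 and 5.37, 5.37, 5.41 and 5.97 at week 16. It was 9.60-fold lower (-3.26 log2, SE 0.39, adjusted p = 1.5e-07), with no overlap, and its week 12 mean of 4.79 was as low. Gm14743, the most abundant gene of the falls and much more abundant in lacrimal than in salivary glands, went from 16.00, 15.87, 15.99 and 16.04 to 13.45, 12.67, 13.06 and 12.61. That was 8.15-fold lower (-3.03 log2, SE 0.30, adjusted p = 9.8e-09), from levels near the top of the array's range. Tmigd1, an epithelial adhesion protein, was 9.96-fold lower and Prom1 (prominin-1), a protein of apical membranes, 5.84-fold lower. Apart from these epithelial genes, Fcamr, a receptor for IgA and IgM, was 5.71-fold lower and Mia, a secreted matrix-binding protein, 9.23-fold lower.

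**Figure D3:**
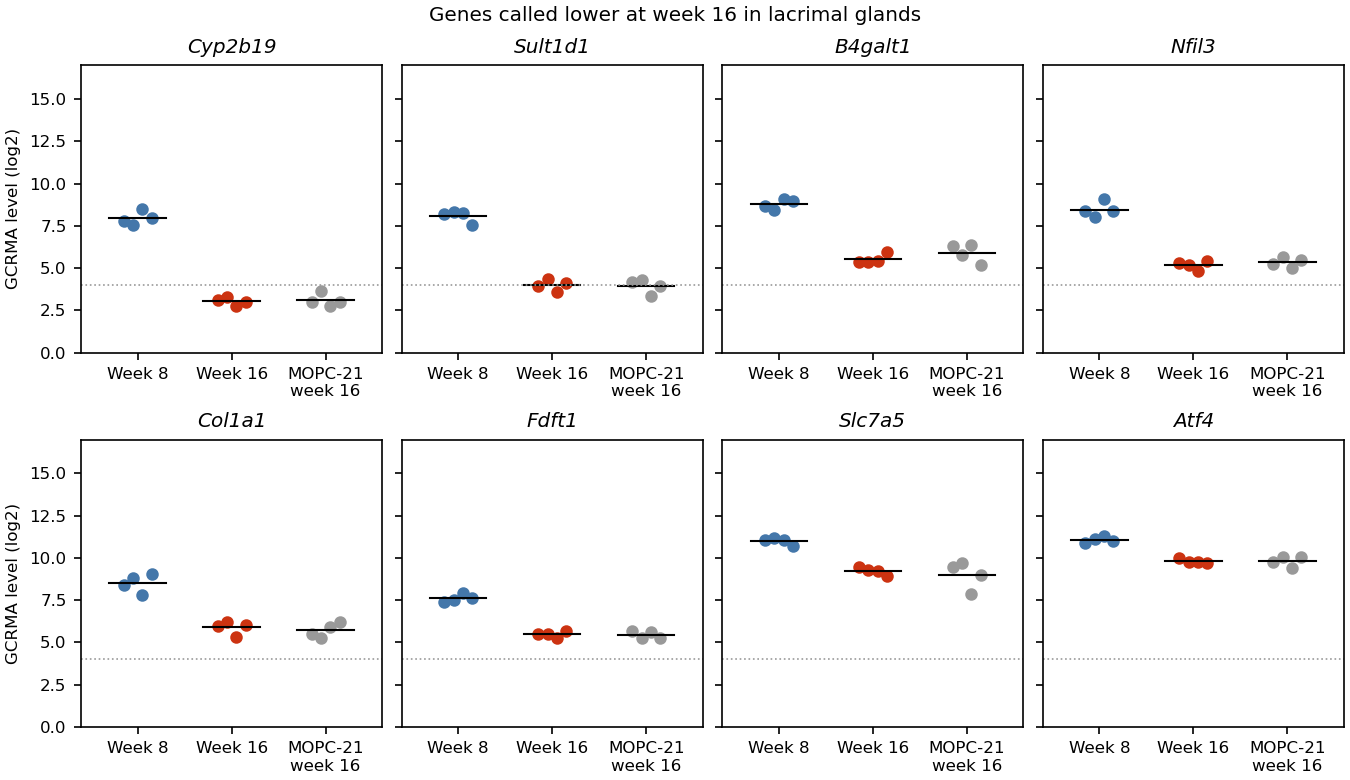
GCRMA level (log2, vertical axis) of 8 genes called lower, one panel each, in untreated week 8, untreated week 16 and MOPC-21 week 16 lacrimal arrays, 4 of each; points are arrays, bars are group means and the dotted line is the floor of 4. Cyp2b19 drops below the floor, whereas Atf4 moves from 10.85 to 11.27 at week 8 to 9.68 to 10.00 at week 16 without overlap.

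Regulatory and signalling genes also fell. Nfil3, a transcription factor tied to the circadian clock, read 8.35, 8.00, 9.07 and 8.36 at week 8 and 5.32, 5.17, 4.85 and 5.42 at week 16 (9.52-fold lower, -3.25 log2, SE 0.33, adjusted p = 1.0e-08). Irs1, the docking protein of insulin signalling, was 5.67-fold lower, from 6.65, 6.66, 7.37 and 6.54 to 4.37, 4.25, 4.47 and 4.12. Neither gene had overlapping groups. Igfbp3, a carrier of insulin-like growth factors, was 6.85-fold lower, the phosphatase Dusp14 7.13-fold, and the histone variant Macroh2a2 5.01-fold. For these 3 the week 16 arrays lay below 4. Among vessel-related genes, Aplnr, the apelin receptor of endothelium, was 7.51-fold lower and the retinoid-binding protein Rbp7 5.87-fold lower. The week 16 arrays of Rbp7 also lay below 4, at 2.45 to 2.56. The remaining genes of the 25 were 5530400C23Rik (6.96-fold), Zfp185 (5.87-fold), the metalloprotease Adamts12 (5.40-fold), Acaa1b (5.33-fold), Gm11827 (5.01-fold) and Mpzl1 (4.71-fold), and Mucl1, Mup5, Scgb1b27 and Col1a1, which are described below.

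Genes that set the lacrimal gland apart from the salivary gland went either way. A set of 96 probe sets was at least 5 log2 higher in lacrimal than in salivary arrays at week 14, an age outside the comparison. It held leukocyte genes as well, among them Cd3d and Ptprc. Of the 96 probe sets, 57 were called higher, 14 lower and 25 neither way. The genes below were taken from it after their values were seen. The 14 lower probe sets included Abcc2 (4.21-fold), an export pump of conjugates, the steroid reductase Akr1c18 (3.96-fold), Papss2 (2.47-fold), which makes the sulfate donor, and Pax6 (2.46-fold), the eye and lacrimal transcription factor. The cytochrome P450 Cyp4a12a was called higher (1.24 log2, adjusted p = 0.022) with overlapping groups, and the transporters Slc27a2 and Slc23a1 changed by 0.74 and -0.68 and were not called. Major tear proteins did not reach a fold of 2 and were not called. Obp1a, an odorant-binding lipocalin, changed by -0.58, Sval2 by -0.18, Lcn11 by -0.10, the secretoglobin Scgb1b2 by 0.04 and lactoferrin (Ltf) by 0.11. Obp1a and Sval2 were lower by the adjusted p alone (7.7e-05 and 0.0056), without overlap. Lcn11, Scgb1b2 and Ltf were not (adjusted p of 0.32, 0.33 and 0.23). Obp1a, Sval2, Lcn11 and Scgb1b2 had means of 15.46 or more on the log2 scale in both weeks, near the top of the array's range.

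Lists of glandular function held calls in both directions. Of 24 acinar fluid secretion genes, 19 passed the filter, 4 were higher and 3 lower, with a median of -0.11. These were 16.7% and 12.5% of those measured, where 6.97% and 2.53% of all measured genes were higher and lower. The water channel of acinar cells, Aqp5, was at 10.62, 10.51, 10.72 and 10.67 at week 8 and 9.64, 9.45, 9.83 and 9.36 at week 16. It was 2.08-fold lower (-1.06 log2, SE 0.16, adjusted p = 6.8e-06), without overlap. The bicarbonate cotransporter Slc4a4 was 2.80-fold lower. Other probe sets of Slc4a4 changed by -1.10, which was called, and by -0.34 and -0.44, which were not. Carbonic anhydrase 6 (Car6) was 2.68-fold lower with overlapping groups (14.16 to 14.66 and 11.82 to 14.62). The inositol trisphosphate receptor Itpr2 rose 7.27-fold from 3.12 to 3.41, the muscarinic receptor Chrm1 2.72-fold and carbonic anhydrase 2 (Car2) 2.74-fold. Leaving out week 16 replicate 4 reduced the lower calls from 3 to 1.

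In the regulated exocytosis list 4 of 19 genes were lower (21.1%, where 2.53% of all measured genes were) and 1 higher. Rab26, a vesicle GTPase of secretory granules, read 6.49, 6.72, 6.74 and 5.87 at week 8 and 4.89, 4.73, 4.84 and 4.54 at week 16 (3.26-fold lower, -1.71 log2, SE 0.29, adjusted p = 2.4e-05). Rab27b, which docks granules at the apical membrane, was 2.46-fold lower and the actin-severing Scin 2.15-fold lower. Other probe sets of Rab27b changed by -1.49, which was called, and by -0.88, which was not. The fourth gene called lower was Bhlha15 (Mist1), the transcription factor of secretory granule maturation, 2.10-fold lower (12.96 to 13.11 and 11.76 to 12.17). Without the arrays with high Amy1 the count was 6. Of 26 epithelial junction and ductal genes 3 were lower and none higher, with 24 of the 26 changes negative, where 12625 of all 18194 were, and a median of -0.40. The 3 were 11.5% of those measured, where 2.53% of all measured genes were called lower. Elf5, a transcription factor of glandular epithelium, fell from 9.77, 9.63, 9.81 and 9.63 to 8.16, 8.45, 8.01 and 7.99. Its groups did not overlap (2.94-fold, SE 0.20 log2, adjusted p = 4.7e-07). Cldn8, a tight junction claudin, and Elf3 were 2.08-fold and 2.07-fold lower. The count was 1 without week 8 replicate 2, and Elf3 was not called without the arrays with high Amy1 (-0.95, adjusted p = 0.0094). By the adjusted p alone 14 of the list were lower, where 32.4% of all tested genes were.

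Cholesterol synthesis was the metabolic list with the highest share of falls. Of 19 measured genes, 17 passed the filter, 6 were lower and none higher. The 6 were 31.6% of those measured, where 2.53% of all measured genes were called lower. All 19 changes were negative, where 12625 of the 18194 measured genes were, with a median of -0.68. Fdft1, squalene synthase, read 7.38, 7.52, 7.93 and 7.64 at week 8 and 5.51, 5.49, 5.26 and 5.65 at week 16. It was 4.40-fold lower (-2.14 log2, SE 0.21, adjusted p = 9.6e-09), without overlap. Sqle, squalene epoxidase and a rate-limiting step, fell from 5.08, 5.28, 4.62 and 4.97 to 2.88, 2.87, 3.13 and 2.97, below the floor and 4.07-fold lower. Phosphomevalonate kinase (Pmvk) was 2.54-fold lower, and Fdps, Cyp51 and Sc5d were 2.01-fold, 2.07-fold and 2.08-fold lower, just past the fold of 2.

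Fatty acid genes moved both ways. In the synthesis list of 21 genes 4 were lower and 2 higher. These were 19% and 9.52% of those measured, where 2.53% and 6.97% of all measured genes were lower and higher. Acacb, the acetyl-CoA carboxylase that limits oxidation, was 4.43-fold lower (4.84 to 5.35 and then 2.34 to 3.48), malic enzyme (Me1) 2.98-fold and the elongase Elovl7 2.81-fold. Other probe sets of Elovl7 changed by -1.03, which was called, and by -0.42, which was not. Fatty acid synthase (Fasn) was 2.09-fold lower, while the desaturase Scd1 rose 2.46-fold and Elovl5 2.33-fold. Of 21 fatty acid oxidation genes (4.76%, where 2.53% of all measured genes were lower) the thiolase Acaa2 alone was called, at 2.07-fold lower. Without week 16 replicate 3 or week 8 replicate 4 it fell just short of a fold of 2. Other probe sets of Acaa2 changed by -0.96 and -0.85 and were not called. The count of lower genes in the list reached 2 without week 16 replicate 4 or week 8 replicate 1.

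Amino acid synthesis and uptake genes gave more falls than rises. Of 21 amino acid genes 5 were lower and 1 higher, with a median of -0.70. These were 23.8% and 4.76% of those measured, where 2.53% and 6.97% of all measured genes were lower and higher. Slc7a5, the importer of large neutral amino acids, read 11.03, 11.14, 11.03 and 10.70 at week 8 and 9.46, 9.27, 9.21 and 8.91 at week 16 (3.39-fold lower, -1.76 log2, SE 0.30, adjusted p = 3.0e-05). Asparagine synthetase (Asns) went from 11.18, 11.46, 11.50 and 11.52 to 10.19, 10.29, 9.60 and 9.40, 2.92-fold lower. Mthfd2, a mitochondrial folate enzyme, Gpt2 and Aldh18a1 were 2.27-fold, 2.08-fold and 2.05-fold lower. Gatm, the first enzyme of creatine synthesis, rose 6.30-fold. Without week 16 replicate 4 the lower calls numbered 3. In the list of 31 protein folding genes Atf4, the transcription factor that induces amino acid synthesis under stress, was the only call (2.36-fold lower, SE 0.15 log2, adjusted p = 3.4e-07). The median of that list was -0.53 and 27 of 31 changes were negative, where 12625 of 18194 were over all genes. By the adjusted p alone 23 were lower, where 32.4% of all tested genes were. Its lower calls numbered 3 without the arrays with high Amy1 or without week 16 replicate 1, and 2 without week 8 replicate 1 or 2.

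Mitochondrial genes were shifted by small amounts. Of 43 oxidative phosphorylation genes none was called in either direction, although 40 changes were negative, where 12625 of the 18194 measured genes were. By the adjusted p alone 32 genes were lower, where 32.4% of all tested genes were. The median was -0.34, against -0.06 over all measured genes. The 2 most abundant members were Uqcrb, of complex III, at 13.22 to 13.43 and then 12.70 to 12.97 (-0.46, adjusted p = 0.00014), and Cox6a1, of complex IV, at 12.96 to 13.06 and then 12.63 to 12.71 (-0.34, adjusted p = 0.00011). Neither pair of groups overlapped, yet both differences were below a fold of 2. In the citric acid cycle list 1 of 21 genes was lower, Idh2 at 2.16-fold, and 3 were without the arrays with high Amy1. Another probe set of Idh2 changed by -0.30 and was not called. Among 20 glucose genes Pfkp, the platelet-type phosphofructokinase, rose 3.38-fold while Pfkm, the muscle type, was 2.12-fold lower, and Fbp2 was 2.39-fold lower. Gapdh, often used for scaling, was itself 2.06-fold higher. Of 26 antioxidant genes only the epoxide hydrolase Ephx1 was called, 2.17-fold higher, and without week 16 replicate 3 there were 2. The leukocyte lists moved in the opposite direction in the same arrays: the mean level of the 18 B cell markers was 2.88 to 3.42 at week 8 and 7.51 to 8.38 at week 16, and that of the 27 macrophage and dendritic cell genes 4.10 to 4.71 and 6.65 to 7.38. Their part in the falls of epithelial and metabolic genes was not tested.

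Among stromal genes some collagens fell, a few genes rose and most were not called. Of 36 matrix and fibroblast genes 32 passed the filter, 8 were lower, 2 higher and 22 not called, with a median of -0.40. Lower calls were 22.2% of those measured, where 2.53% of all measured genes were lower, and 10 of the 36 changes were positive. Col1a1, a chain of fibrillar collagen I, read 8.40, 8.80, 7.81 and 9.06 at week 8 and 5.98, 6.20, 5.33 and 6.02 at week 16. Replicate 3 was the lowest array of both weeks, and the groups stood apart with a 6.22-fold lower mean (-2.64 log2, SE 0.40, adjusted p = 6.6e-06). Col1a2 and Col3a1 were 3.02-fold and 3.29-fold lower, the basement membrane chains Col4a1 and Col4a2 3.56-fold and 3.34-fold, and elastin (Eln) 3.05-fold. Sparc, a matrix-binding glycoprotein, was at 10.57, 10.83, 10.33 and 11.04 and then 8.80, 8.89, 8.63 and 8.96, 3.66-fold lower. Thy1, on fibroblasts and also on T cells, rose 5.60-fold, and the proteoglycan biglycan (Bgn) rose 2.88-fold. Without the arrays with high Amy1, 11 genes of the list were lower.

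Other stromal and supporting cell types gave few calls. Of 12 blood endothelium genes Pecam1, also on leukocytes, rose 2.70-fold, and Emcn, a sialomucin of capillaries and veins, was 2.08-fold lower. The rising count was 2 without week 16 replicate 1, without week 8 replicate 1 or without the arrays with high Amy1. None of 15 myoepithelial and smooth muscle genes was called, and the smooth muscle actin Acta2 read 9.63 to 9.84 at week 8 and 9.44 to 9.70 at week 16 (-0.13, adjusted p = 0.46). Among 11 adipocyte genes lipoprotein lipase (Lpl) was lower, just past a fold of 2 (adjusted p = 0.023) and with overlapping groups, and was not called without week 8 replicate 1 or 4 or week 16 replicate 1 or 3. Of 7 nerve and Schwann cell genes Cnp rose 7.68-fold. Of 12 skeletal muscle genes 1 passed the filter and none was called.

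Products of the salivary glands were a separate pattern, because they followed single arrays. The 6 genes measured of the parotid-type list had no call, although Amy1, Bpifa2 and Cst10 had mean changes of 5.58, 6.06 and 5.48. Among the 6 was Dnase1, here a tear gland product, 12.63 log2 higher in lacrimal than in salivary glands at week 14. Bpifa2, a secreted parotid protein, read 1.93, 2.21, 1.95 and 1.89 at week 8 and 13.83, 14.25, 1.91 and 2.22 at week 16. As for Amy1, replicates 1 and 2 were high and replicates 3 and 4 at background. Smr3a, a submandibular product, was at 14.20 and 15.07 in the same 2 arrays and at 2.48 and 2.44 in the other 2. Without these arrays the changes of Amy1, Cst10 and Smr3a were -0.24, -0.07 and -0.23.

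Some genes abundant in salivary glands were present in every week 8 lacrimal array. Mucl1, a mucin-like protein, read 11.37, 11.62, 12.33 and 11.89 at week 8 and 11.06, 7.37, 4.12 and 4.28 at week 16, the widest fall of all genes (-5.10 log2, SE 1.39, adjusted p = 0.0033), and changed by -7.61 (adjusted p = 0.00024) without the arrays with high Amy1. The week 16 arrays with high Amy1 were the 2 with the higher Mucl1, and the MOPC-21 arrays ran from 3.67 to 9.59. Scgb1b27, a secretoglobin, went from 12.88, 13.37, 12.65 and 12.10 to 11.57, 10.25, 9.44 and 9.59 (-2.54 log2, SE 0.80, adjusted p = 0.0096), with a change of -3.23 without those arrays. Mup5, a major urinary protein that binds pheromones, went from 11.46, 11.28, 12.08 and 12.08 to 9.99, 7.23, 5.66 and 6.84 (-4.29 log2, SE 0.87, adjusted p = 0.00021), with a change of -5.47 without them. In all 3 genes replicate 1 was the highest week 16 array. Kallikrein Klk1 was called higher with all arrays (41.9-fold, from 2.93 to 3.06 up to 10.16, 11.83, 5.91 and 5.55) and was not called without the arrays with high Amy1 (2.76 log2, adjusted p = 0.085). The proline-rich Prol1 likewise lost its call (3.28 log2 with all arrays, 2.28 and adjusted p = 0.12 without). With all arrays, other probe sets of Klk1 changed by 4.81, which was called, and by 0.70, which was not. Of 21 submandibular and sublingual products 3 were higher and 1 lower, which became 1 and 2 without those 2 arrays. The higher calls numbered 7 without week 16 replicate 3 or without replicate 4, and the lower calls 2 without replicate 1.

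**Figure D4:**
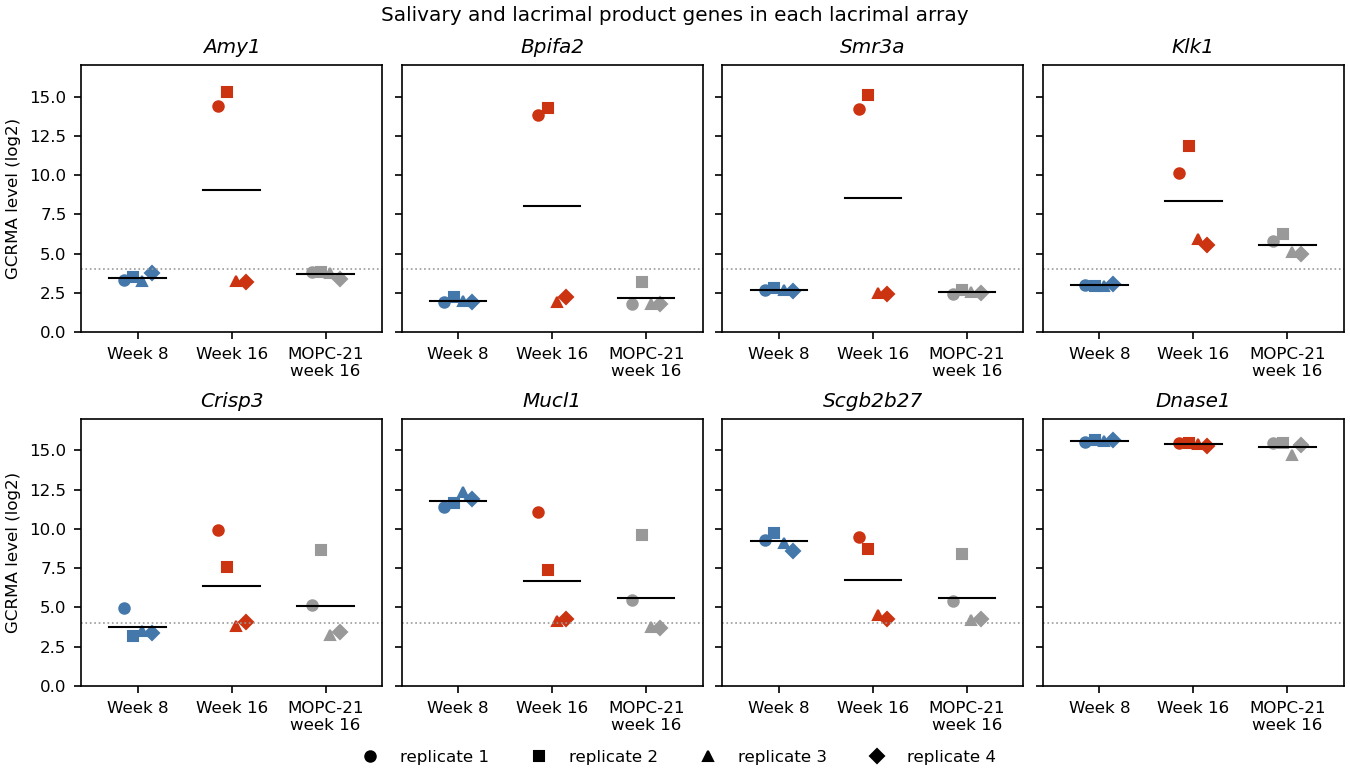
GCRMA level (log2, vertical axis) of 7 salivary product genes and of the tear gland product Dnase1, one panel each, in every untreated week 8, untreated week 16 and MOPC-21 week 16 lacrimal array; symbols mark the replicate, bars the group means and the dotted line the floor of 4. Amy1, Bpifa2 and Smr3a stand above 13 in untreated week 16 replicates 1 and 2 and under 4 elsewhere, while Dnase1 stays at 14.73 or more throughout.

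Of the 109 genes named by the rule and called, 106 kept their call and direction without the 2 arrays, Elf3, Klk1 and Prol1 being the exceptions. The MOPC-21 arrays at week 16 gave a second set of 4 glands of the same age with Amy1 at 3.38 to 3.84. Replicate 2 of these stood higher than the others in submandibular and sublingual products, with a list mean of 5.92 against 3.52 to 4.27. They were compared with the same week 8 arrays, so the comparisons share that group and are given side by side. With MOPC-21 glands 2516 probe sets (12.9%) were higher and 1123 (5.75%) lower. Cxcl9 reached up to 10.38 in the MOPC-21 arrays and lay 6.61 log2 above week 8 against 6.43 in untreated glands. Cxcl13 was 6.52 above against 6.25, and H2-Ab1 6.03 against 5.95. Glycam1 read 7.10 to 9.19 after MOPC-21, with a change of 4.95 against 3.92. Among the falls Cyp2b19 changed by -4.84 against -4.90, Fdft1 by -2.18 against -2.14, Col1a1 by -2.81 against -2.64, Slc7a5 by -1.98 against -1.76 and Atf4 by -1.23 against -1.24. Among genes 13.5% were higher and 5.86% lower. Counts of lower genes were 8 of 19 in cholesterol synthesis, 6 of 21 in amino acid synthesis and 9 of 36 in the matrix list, against 6, 5 and 8 in untreated glands. Higher counts were 14 of 22 T cell, 26 of 31 interferon and 9 of 20 cell cycle genes, against 14, 27 and 3.

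The salivary glands of the same ages tested whether these changes were shared with another exocrine gland of NOD mice. The labels give no sex. The Y-linked Eif2s3y read 8.12 to 8.36 in these salivary arrays and 8.12 to 8.52 in the 8 lacrimal arrays, and Xist, made from the inactive X, was at most 2.98 in all 16. The lacrimal change minus the salivary change was tested in 21115 probe sets, and 2713 (12.8%) differed upward and 1494 (7.08%) downward, or 19.9% in all. Salivary week 8 replicate 1 read 5.66 on the mean of the 96 lacrimal probe sets, where the other 7 salivary arrays read 3.52 to 3.74, and without it 4271 probe sets differed in place of 4207. Whether lacrimal tissue was part of that sample was not tested. Among genes, 13.9% of 10538 differed upward and 6.60% downward. The T cell list differed upward in all 14 genes tested. So did 12 of 12 class I, 11 of 12 class II and 23 of 29 interferon genes. Salivary medians of these lists were, in that order, 0.01, 0.51, 0.08 and 0.51. A gene could enter this test through the lacrimal week 16 arrays alone, so these shares of tested genes are not independent of the lacrimal rise.

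The collagen gene Col1a1 was lower at week 16 in both glands. Salivary Col1a1 read 9.51, 9.93, 10.10 and 9.90 at week 8 and 7.09, 7.10, 6.99 and 7.28 at week 16, a change of -2.75 where the lacrimal change was -2.64. The difference of the changes was 0.11 (SE 0.44, adjusted p = 0.86). Over the matrix list the salivary median was -1.48 against -0.40, and 15 of 34 genes tested had a change that was higher in lacrimal glands, with 1 lower. Eln was one of them: its salivary change was -3.11 and its lacrimal change -1.61 (difference 1.51, adjusted p = 0.00012).

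The median change of the cell cycle list was positive in lacrimal and negative in salivary glands. Ube2c went in salivary glands from 6.57, 6.16, 5.49 and 5.35 to 3.23, 2.73, 2.64 and 3.11, whereas it rose in lacrimal glands, and the difference was 4.71 log2 (SE 0.52). Top2a, the mitotic topoisomerase, differed by 4.05 (adjusted p = 8.5e-09). Of 15 cell cycle genes tested 13 differed upward and none downward, with medians of 0.57 in lacrimal and -1.57 in salivary glands. Myoepithelial and smooth muscle genes differed the other way, in 8 of 12 tested. Acta2 was at 10.67, 10.90, 10.90 and 10.57 in week 8 salivary glands and at 11.78, 11.99, 11.90 and 11.87 at week 16, while the lacrimal level was not called (difference -1.25, adjusted p = 5.9e-08). Cholesterol genes had a salivary median of -0.39 against -0.68, and of 18 tested 2 differed upward and 2 downward. For oxidative phosphorylation the medians were -0.21 in salivary and -0.34 in lacrimal glands, and none of 43 differed by a fold of 2.

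**Figure D5:**
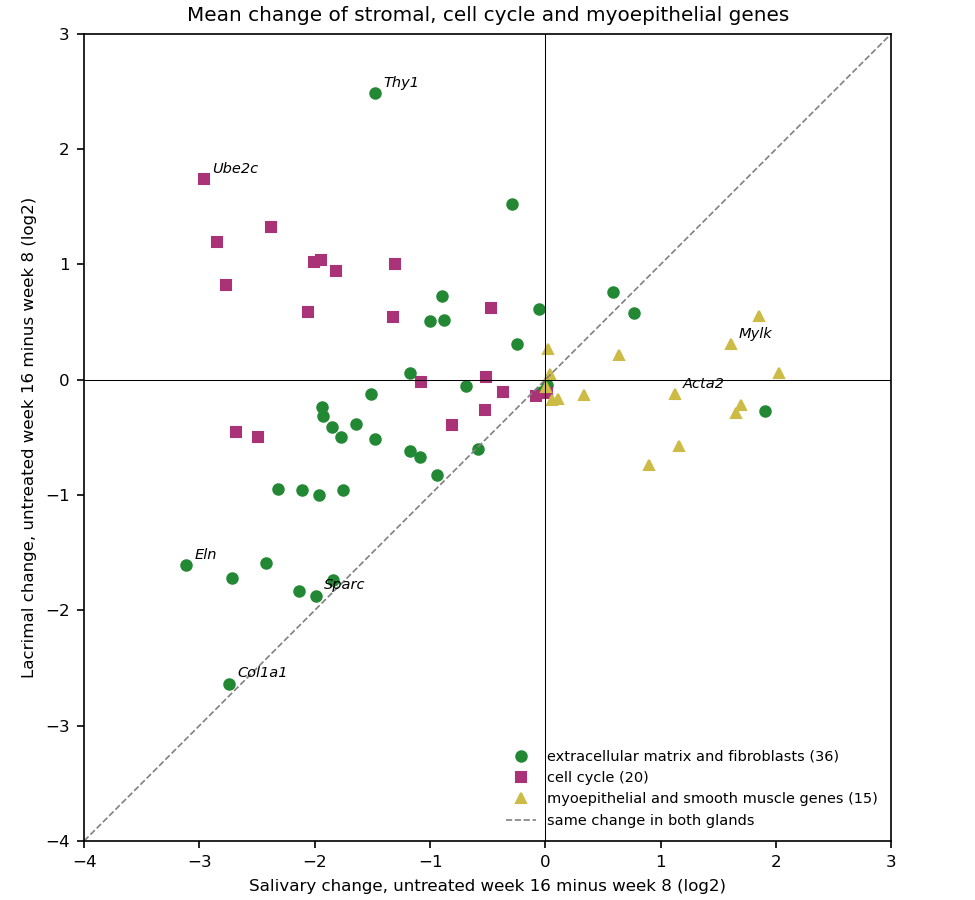
Change from week 8 to week 16 (log2, difference of means of 4 arrays each) in untreated salivary glands (horizontal axis) and lacrimal glands (vertical axis); each point is a gene of the matrix (36), cell cycle (20) or myoepithelial (15) list, and the dashed line marks the same change in both glands. Col1a1 lies on the line, Ube2c and Thy1 far above it, and Acta2 and Mylk below it near a lacrimal change of 0.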

How the data were processed

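RNA was extracted with Trizol, labelled with NuGEN Ovation reagents and hybridised to Affymetrix mouse genome arrays, 1 sample per array. The authors deposited log2 expression values made with GCRMA (version not given) over all 61 arrays, and these were used without further normalization. The number of arrays limits the precision. Groups came from the sample titles, and no column of values was left out (0 columns). Genes were named from single-symbol probe sets (34958 of 45101, with 932 of several symbols and 9211 unlisted). Tests used limma 3.58.1 in R 4.3.3: group means over the 31 lacrimal arrays (8 groups), or over all arrays for the gland comparison, with eBayes, an intensity trend and Benjamini-Hochberg adjustment over all probe sets tested. The test was checked on simulated data. Replicate numbers did not pair the lacrimal arrays of the 2 weeks. Whether same-numbered lacrimal and salivary arrays came from one mouse is not given in the sources used here, and the gland comparison treated all arrays as independent.

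The genes named were those the study names for lacrimal glands, the 15 largest rises (B cell, plasma cell and immunoglobulin genes aside), the 25 largest falls, the 3 called genes of largest change in each list (or, with none called, the 2 of highest mean) and variable salivary products. Members and the 35 lists (691 of 754 genes measured) were chosen with earlier results of these data known. Alternatives changed the arrays fitted, filter, normalization, weights, call rule, variance trend, block and probe set.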

Additional observations from a re-analysis of the deposited data

Results flagged for a closer look

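Outlying arrays were sought in 272 groups of 4 arrays, the 2 weeks of each of 136 named genes, and 16 groups had one. Chance flags about 1 in 20 such groups. At week 8 the array stood above the others in Btla (replicate 4, 2.97), Irs1 (replicate 3, 7.37), Cd22 and Cd79b (both replicate 4, 3.81 and 4.48), Mylpf (replicate 3, 4.46) and Klk1b16 (replicate 1, 3.48). It stood below the others in Cxcl12 (replicate 3, 6.76), Sult1d1 (replicate 4, 7.54), Acaa1b (replicate 4, 7.65), Asns (replicate 1, 11.18) and Cst10 (replicate 1, 2.39). At week 16 the array was high in B4galt1 and Mzb1 (both replicate 4, 5.97 and 9.75) and Mylpf (replicate 1, 3.81), and low in Rbp7 (replicate 4, 2.45) and Acaa2 (replicate 3, 7.67).

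The change from week 8 to week 16 differed between lacrimal and salivary glands in 4207 of 21115 probe sets by the test of the difference itself. Of these, 2713 changed more upward and 1494 more downward in lacrimal glands.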

How the results depend on the processing

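The counts of probe sets called moved by over 1.5 times only under the stricter filter (a level above 6 in 2 arrays) and under the rule on the posterior probability of no change. Rises at week 16 numbered 1417 and 1404 under these, rises after MOPC-21 1470 and 1554, and differences between the glands 2688 and 2184. Falls at week 16 numbered 651 and 603. Leaving out single arrays gave 2222 to 2537 rises and 817 to 1024 falls, 2183 to 2733 and 768 to 1421 for MOPC-21 (768 without MOPC-21 replicate 3), and 3931 to 4422 differences between glands. Quantile normalization gave 2123 rises and 1147 falls, and centring on array medians 2135 and 1279. Without the arrays with high Amy1 there were 2626 rises and 1121 falls. That alternative and the fit of untreated arrays alone give no value for MOPC-21.

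Without the arrays with high Amy1 the mean change turned negative for Amy1 (-0.24), Bpifb1 (-0.11), Prpmp5 (-0.23), Cst10 (-0.068), Klk1b8 (-0.30), Klk1b16 (-0.12), Klk1b21 (-0.71), Smr3a (-0.23) and Dcpp1 (-0.61), none of which was called. Klk1b21, at 0.03 with all arrays, was also negative after quantile normalization (-0.17), centring (-0.071) and array weights (-0.0014), and without week 16 replicate 1 (-0.55) or week 8 replicate 2 (-0.13) or 4 (-0.037), within -0.55 to 0.30 over single arrays left out. The rule on the posterior probability dropped the calls of Mucl1, Mup5, Scgb1b27, Ube2c, Car2, Scin, Elf3, Pecam1, Emcn, Klk1 and Prol1. Scin (-0.96 and -0.99 without week 16 replicate 2 or 3) and Cldn8 (-0.97, -0.96 and -0.97 without week 16 replicate 4 or 3 or week 8 replicate 2) fell just short of a fold of 2, and so did Elf3 without week 16 replicate 2 (-0.98) or week 8 replicate 2 (-0.94) or 3 (-0.97). Acaa2 did so after quantile normalization (-0.98). Of 52 other probe sets of called named genes, 51 changed in the same direction, Cxcl12 (-0.53) being the exception, and 42 were also called. Week 8 levels near the floor of 4 limit the size of many rises.

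With the replicate number as a block there were 2400 rises and 900 falls at week 16, 2519 and 1123 after MOPC-21, and 4213 differences between glands. Same-numbered arrays of the 2 weeks deviated with correlations of 0.03, 0.01, -0.01 and 0.12, so the numbers did not pair them, and 2 of 4 correlated best with their own number. Higher and lower submandibular products numbered 8 and 2 under the block.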
